A study of Mus musculus with 2 samples.

Results

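The transmembrane mucins Muc1, Muc4, Muc16 and Muc20 were followed in single cells of the mouse cervix. They were taken by symbol from the gene lists of the files, where all 4 of the 4 symbols were found among 31053 listed genes. The question was which epithelial cells carried each mucin, whether the mucins met in the same cell, and whether their levels differed between hormone-deprived and progesterone-treated tissue. There were 2 pools of 9 C57BL6/129 females each, 1 library per pool, from mice ovariectomised at 7 to 8 weeks of age and left for 2 weeks to recover. Ovariectomy, shared by both groups, removes the main source of ovarian hormones. The control mice were left without treatment over the 15 days of the experiment. The progesterone mice were injected subcutaneously with estradiol (E2, 100 µg per day in corn oil) on 2 days and then carried an implanted 25 mg progesterone pellet of the 21-day type, estimated to give 1 mg daily. Because the control had neither estradiol nor injections nor a pellet, the effects of progesterone cannot be told apart from these. With 1 library of pooled mice per group there was no replicate and no test between groups, and every interval below is a 95% interval for counting error only.

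Transmembrane mucins are long, heavily O-glycosylated proteins anchored in the apical membrane of epithelial cells, where they build the glycocalyx under the secreted mucus. Muc1 and Muc16 carry SEA modules, protein folds at which such mucins are cleaved and from which the extracellular part can be released. Muc4 has EGF-like domains and is known as a partner of the receptor Erbb2, and Muc20 is a small member described as a partner of the receptor Met. In the cervix such mucins lie beside gel-forming mucins such as Muc5b that are secreted by mucous cells.

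In the GRCm38 annotation (GENCODE release M21) Muc1 (ENSMUSG00000042784) is a protein-coding gene on the plus strand at chr3:89229057-89233381, with no overlapping gene. Muc16 (ENSMUSG00000109564) lies on the minus strand at chr9:18495455-18674530. Muc4 (ENSMUSG00000079620) occupies chr16:32735886-32782391 on the plus strand, and Muc20 (ENSMUSG00000035638) chr16:32777419-32797435 on the minus strand. These last neighbours point at each other and overlap by 4973 bp. The last exon of Muc20, 1728 bp long, shares 627 bp with exons of Muc4, whereas the last exon of Muc4, 566 bp long, shares 0 bp with exons of Muc20. Reads from a 3′ kit fall near the last exon. Whether the counting used strand is not given in the sources used here, so reads in the shared 627 bp may be uncertain between the genes.

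**Figure D1:**
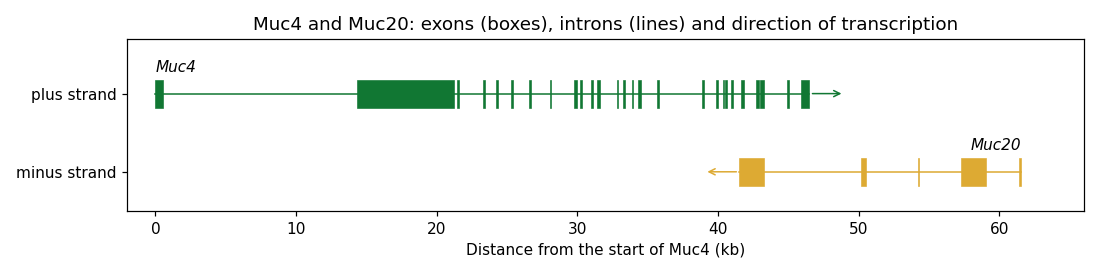
Exons (boxes), introns (thin lines) and direction of transcription (arrows) of Muc4 and Muc20 by distance in kb from the start of Muc4. The genes run towards each other and overlap by 4973 bp, and the last exon of Muc4 lies between exons of Muc20.

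The sequences just upstream of the start sites are shown because the 4 members had different levels over the cell populations described below. They are RefSeq promoter sequences of build GRCm38.p6, 5′ to 3′ on the strand of the gene, with 125 bases before the start printed and 250 searched. Capitals mark matches, on either strand, to TATAAA (the TATA box), GGGCGG (a GC box), AGAACA (a half-site of the progesterone receptor) and GGTCA (a half-site of the estrogen receptor).
Muc1, chr3:89228931-89229055, plus strand: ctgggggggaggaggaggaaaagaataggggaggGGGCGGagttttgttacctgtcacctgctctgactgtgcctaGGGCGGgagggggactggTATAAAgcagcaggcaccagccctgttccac
Muc4, chr16:32735761-32735885, plus strand: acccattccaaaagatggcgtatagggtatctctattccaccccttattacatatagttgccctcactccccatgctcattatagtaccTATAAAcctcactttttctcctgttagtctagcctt
Muc16, chr9:18674604-18674728, minus strand: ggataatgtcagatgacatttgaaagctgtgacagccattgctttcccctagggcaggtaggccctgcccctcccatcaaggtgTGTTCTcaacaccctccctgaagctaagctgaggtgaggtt
Muc20, chr16:32797436-32797560, minus strand: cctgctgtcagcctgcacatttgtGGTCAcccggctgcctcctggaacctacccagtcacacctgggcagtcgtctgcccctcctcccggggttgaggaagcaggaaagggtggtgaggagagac
Muc1 and Muc4 each held a TATA box, 31 and 36 bases before the start, and Muc16 and Muc20 held none in the window. TATAAA occurred in 12.4% of 32851 mouse windows of the same length. Muc1 also held 2 GC boxes, a motif found in 32.7% of windows. Muc16 held 1 AGAACA match on the other strand (16.1% of windows) and Muc20 1 GGTCA match (35.2% of windows). The motif TTCNNNGAA (a STAT element, 7.02% of windows), occurred in none of the 4. A match is a description of the letters only.

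After filtering, 4579 control and 8541 progesterone cells were analysed, with medians of 3733 and 4151 UMIs (unique transcript tags) per cell. The libraries shared 12 barcodes among analysed cells. Cells were clustered without the mucins and without the gene lists used here, and each cluster was named from fixed markers. Levels are CPM, UMIs of the gene per 1000000 UMIs of the population. A 3′ kit counts 1 tag per transcript, so a level carries no factor of transcript length, but genes can still differ in how well they are tagged.

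Mucous-like cells (Muc5b, Agr2, Tff1) numbered 130 in control and 1730 in progesterone, and came from different clusters in the libraries. In control, 124 of them formed a Psca-positive mucous cluster led by Psca, Tff1, Olfm4 and Agr2. The mucous name rests on the summed levels of a cluster and not on each cell. Among the 21 cells of this control cluster with a Muc4 UMI, the median cell had 0 CPM of Muc5b, Agr2 and Tff1. The same was true among the 103 cells without, so many control cells of the class showed none of a given naming gene. In progesterone, 956 were in a cluster with 10273 CPM of Clca1, a goblet-cell secreted protease, and 772 in one with 464 CPM of Clca1, called Clca1-high and Clca1-low here. A cluster found mostly in 1 library may reflect that library rather than a cell type.

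Cells of Psca-positive clusters outside the mucous class numbered 759 in control and 59 in progesterone. The name rests on summed levels of a cluster and not on each cell. It asked for Psca and for a mean over Psca, Krt8, Krt18, Krt7, Krt19 and Cldn4 above that of other cell types. Psca is a small GPI-anchored protein of the Ly6 family. A Psca-high cluster (85 and 17 cells) had 22424 CPM of Psca over both libraries, and a Psca-moderate cluster (674 and 42 cells) had 1031. The next cluster, with 362 CPM and 21 and 22 cells, stayed outside the class. A Psca UMI was present in all 85 and 17 Psca-high cells, but in 36.9% of control and 76.2% of progesterone Psca-moderate cells, so most control cells of that cluster showed no Psca. The Psca-high and Psca-moderate clusters were led by Sprr2d and Lcn2, with Krt8 at 336 and 172 CPM against 3841 CPM in the Psca-positive mucous cluster. Over the luminal markers Krt8, Krt18, Krt7, Krt19, Epcam and Cldn4, their mean log2 level over the median cluster was 2.51 and 1.29. In the Clca1-high and Clca1-low clusters that mean was 2.12 and 1.75. Krt8 by itself therefore does not settle whether the Psca-high and Psca-moderate clusters were luminal, and they are called here by Psca. Squamous-like cells, basal and suprabasal together, numbered 2479 and 4138.

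Muc1 was read in both Psca-positive and mucous cells. Its level was 628 CPM (interval 566 to 695) in control Psca-high cells and 852 (738 to 979) in the 17 progesterone Psca-high cells. Clca1-high cells, all but 3 of them from the progesterone library, followed with 383 CPM (365 to 402). These 3 populations had intervals that did not overlap. Psca-moderate cells of the progesterone library had 305 CPM of Muc1 (253 to 365), touching the lower bound of Clca1-high cells, and the Psca-positive mucous cells of control 278 (235 to 327), with overlapping intervals. Control Psca-moderate cells lay lower, at 136 CPM of Muc1 (125 to 147). Clca1-low cells had 16.1 CPM of Muc1 (12.4 to 20.4), far under their Clca1-high neighbours.

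Muc4 was a mucin of the Psca-positive cells. Control Psca-high cells had 858 CPM of Muc4 (785 to 936) and progesterone Psca-high cells 737 (631 to 856), which were not separable by counting error. The Psca-moderate clusters of both libraries also overlapped, at 175 CPM of Muc4 in control (163 to 188) and 177 in progesterone (138 to 224). In mucous cells Muc4 was lower, at 62.9 CPM in the control Psca-positive mucous cluster (43.3 to 88.3) and 49.0 in Clca1-high cells (42.6 to 56.1). Those mucous values overlapped as well. Clca1-low cells had 3.60 CPM of Muc4 (2.01 to 5.93), near the 4.61 CPM of control suprabasal squamous cells (3.11 to 6.59). In the control library, Psca-positive over mucous ratios were 4.34 for Muc4 (3.08 to 6.34), 0.705 for Muc1 (0.594 to 0.842) and 0.384 for Muc20 (0.278 to 0.540). Of the 4 members 1 was at least 2-fold higher and 2 lower, beside 12.3% and 13.6% of 9593 genes. The Muc4 ratio turned to -1.92 on the log2 scale at clustering resolution 0.5, and the Muc1 ratio to 1.17 with Psca-high cells alone and 0.59 with Psca-positive cells picked one by one.

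Most Muc16 UMIs lay in mucous cells. The Psca-positive mucous cells of control had 112 CPM of Muc16 (85.6 to 145) and Clca1-high cells 34.4 (29.1 to 40.4). Clca1-low cells had 1.92 CPM of Muc16 (0.828 to 3.78). In Psca-positive cells outside the mucous clusters, Muc16 gave 1 UMI in 759 control cells and 0 in 59 progesterone cells, where 3 UMIs would have been 4.80 CPM. Mucous cells held 90.1% of all Muc16 UMIs of the control library and 96.9% of those of the progesterone library. A further 4 control UMIs fell in 4 of 79 fibroblast-like cells. In that shallow class they came to 43.5 CPM (11.9 to 111), an interval that includes the level of Clca1-high cells. All 4 of the fibroblast-like cells with Muc16 also carried Upk3b, a mesothelial marker, which was read in 9 of the 79.

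Muc20 had the flattest profile. It reached 162 CPM in progesterone Psca-high cells (115 to 222), 93.4 in control Psca-positive mucous cells (69.1 to 123) and 85.6 in control Psca-high cells (63.8 to 113), neighbours in the order whose intervals overlapped. Clca1-high and Clca1-low cells had 52.5 CPM (45.9 to 59.8) and 51.3 CPM (44.7 to 58.6) of Muc20. Psca-moderate cells had 30.8 CPM of Muc20 in progesterone (15.9 to 53.8) and 26.8 in control (22.1 to 32.2). Muc20 and Muc4, which overlap on the chromosome, differed in some populations. Clca1-low cells had 51.3 CPM of Muc20 beside 3.60 of Muc4, and control Psca-moderate cells 26.8 CPM of Muc20 beside 175 of Muc4.

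**Figure D2:**
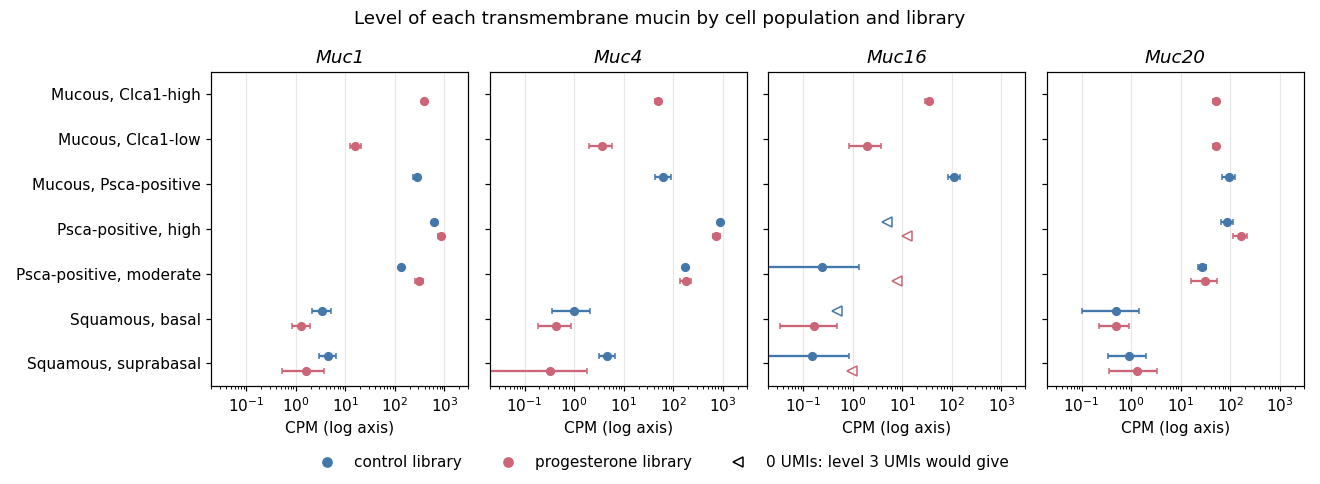
CPM (log axis) of each mucin in 7 populations of the control (blue) and progesterone (red) libraries, with exact Poisson 95% intervals. Populations under 15 cells in a library are left out, and open triangles mark 0 UMIs at the level 3 UMIs would give. Muc1 spanned Psca-positive and mucous cells, Muc4 peaked at 858 CPM in control Psca-high cells, Muc16 was confined to mucous populations apart from measured levels under 1 CPM, and Muc20 was near 50 CPM in both Clca1 populations.

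Squamous cells had little of any member. In control they had 3.95 CPM of Muc1 (2.93 to 5.21), 2.85 of Muc4 (1.99 to 3.94), 0.0791 of Muc16 and 0.712 of Muc20. In progesterone the squamous levels were 1.35 CPM of Muc1 (0.903 to 1.94), 0.418 of Muc4 (0.191 to 0.794), 0.140 of Muc16 and 0.604 of Muc20. Classes that should lack mucins set the background. Macrophage-like cells had 0 Muc1 UMIs in control, where 3 would be 9.23 CPM, and 3.49 CPM in progesterone. Neutrophil-like cells had 0 Muc1 UMIs in control and 9.97 CPM in progesterone (2.72 to 25.5). Median depths were 1469 and 1963 UMIs for macrophage-like, 581 and 776.5 for neutrophil-like, and 4412 and 4792 for squamous cells. Summed over the class, the squamous Muc1 levels lay under the upper bounds of these classes. In control those bounds were 11.3 CPM for macrophage-like and 16.6 for neutrophil-like cells. With so few UMIs, these classes cannot show whether squamous cells had more. Squamous levels were not even over the clusters of control. In 1 suprabasal cluster of 662 cells Muc1 was at 9.27 CPM (6.16 to 13.4) and Muc4 at 8.61 (5.62 to 12.6). It held 28 of the 50 Muc1 and 26 of the 36 Muc4 squamous UMIs. Another of 355 cells had 0 Muc1 UMIs, with an upper bound of 1.27 CPM. Whether those UMIs came from the cells themselves was not tested. A cluster led by hemoglobin genes had 31.4 CPM of Muc1 in control and 29.9 in progesterone, together with 622 CPM of Clca1.

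Against squamous cells of the same library, all 4 members were more than 2-fold higher in mucous cells, as were 20.5% of 11100 genes in control and 18.8% of 12673 in progesterone. No fold is given, since the squamous levels could not be told apart from those of classes that should lack mucins. Taken at those squamous levels, and so as a lower limit, the median log2 ratio over the members was 6.55 and 6.73, with a median over all genes of 0.11 and 0.16. In the other direction there was no member, beside 14.7% and 13.2% of genes. In control Psca-positive cells all 3 members with 20 or more UMIs were at least 2-fold higher than in squamous cells, beside 11.3% of 11613 genes, and 0 lower, beside 13.3%.

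Within the progesterone mucous cells, 3 members were split by Clca1 and Muc20 was not. Clca1-high over Clca1-low ratios were 23.8 for Muc1 (18.7 to 30.9), 13.6 for Muc4 (8.08 to 24.8) and 17.9 for Muc16 (8.86 to 42.3). For Muc20 the ratio was 1.02 (0.845 to 1.24). At least 2-fold higher in Clca1-high cells were therefore 3 of the 4 members, beside 8.02% of 10752 genes, and 0 were lower, beside 3.44%. The median log2 ratio was 3.97 over the members and 0.10 over all genes. Both clusters came from 1 library, at median depths of 4424 and 5697.5 UMIs per cell. With clusters drawn at resolution 2 the Muc1 ratio fell to 3.51 on the log2 scale, from 4.58.

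The split was also described cell by cell, in the same cells. Clca1 was not left out of clustering and gave both clusters their names, so this restates the split and is no separate support. Each cell was thinned to 2000 UMIs, leaving out shallower cells, and progesterone mucous cells were grouped by the Clca1 UMIs they kept. Muc1 was read in 7.65% of 614 cells with 0 Clca1 UMIs, 36.2% of 257 cells with 1 to 4, 49.1% of 279 with 5 to 19 and 51.5% of 355 with 20 or more. Muc4 went through the same steps from 1.14% to 3.89%, 6.09% and 11.8%. Muc16 went from 0 of 614 cells, which allows up to 0.489%, to 0.389%, 1.79% and 7.04%. For Muc1 the step was between none and any Clca1, whereas Muc16 was mostly found in the highest group. Muc20 stayed between 7.39% and 11.3% in all 4 groups.

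In the control library the members were grouped by Psca in the same way, over all cells. Muc1 was read in 3.23% of 2661 cells with 0 Psca UMIs, 26.0% of 177 with 1 to 4, 42.1% of 95 with 5 to 19 and 62.1% of 87 with 20 or more. Muc4 rose in parallel, with 3.27%, 20.3%, 47.4% and 55.2%. Muc20 went from 1.32% to 17.2%, and Muc16 peaked at 5.26% in the third group and was at 1.15% in the highest. Progesterone cells with 20 or more Psca UMIs were few, 18 in number, and 83.3% of them had Muc1 and 66.7% Muc4. These shares describe cells of 1 library each, and no test was made over cells.

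**Figure D3:**
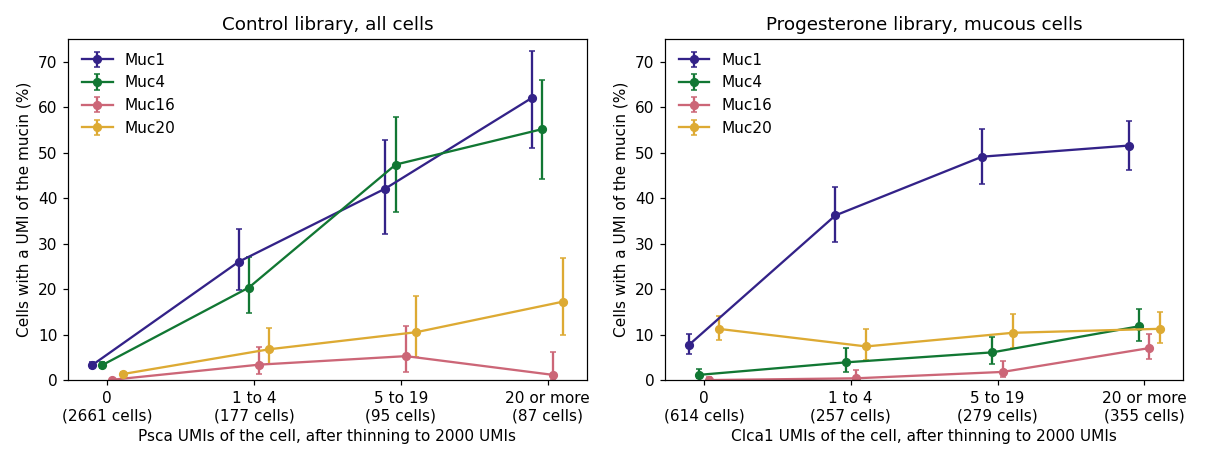
Share of cells (%) with a UMI of each mucin by the Psca UMIs of the cell in the control library (left) and by Clca1 UMIs in progesterone mucous cells (right), after thinning to 2000 UMIs, with exact Clopper-Pearson 95% intervals. Over all control cells, which mix classes, Muc1 and Muc4 climbed together with Psca to 62.1% and 55.2%, while along Clca1 only Muc20 was flat.

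Unthinned, a UMI of Muc1 was present in 72.5% of Clca1-high cells and 80.0% of control Psca-high cells, against thinned shares of 52.4% and 62.0%. Members also differed in UMIs per positive cell. In control Psca-high cells Muc4 had a mean of 7.51 UMIs per positive cell, up to 33 in one cell, and Muc1 5.50. In Clca1-high cells Muc16 was rare but concentrated: 148 UMIs lay in 65 of 956 cells, up to 12 in one, and the 21 cells with 3 or more held 60.8% of them. Muc20 in the same cells was spread thin, with 226 UMIs over 199 cells. The same contrast was seen in the Psca-positive mucous cells of control, where 59 Muc16 UMIs lay in 23 of 124 cells, with up to 13 in one, and 49 Muc20 UMIs lay in 37.

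Cells with 2 or more of the 4 members were most frequent among Psca-high cells. After thinning these were 48.1% of 79 control Psca-high cells (36.7 to 59.6) and 9.68% of 630 control Psca-moderate cells (7.49 to 12.3). Among mucous cells they were 11.8% of 853 Clca1-high cells (9.75 to 14.2), 0.308% of 650 Clca1-low cells and 10.7% of 103 Psca-positive mucous cells of control. Among squamous cells there were 0 of 1914 in control, which allows 0.157%, and 0 of 3814 in progesterone, which allows 0.0787%. All 4 members together were read in 1 cell, a Clca1-high one.

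Muc1 and Muc4 were read together beyond the product of their shares in Psca-moderate cells. Of 630 thinned control cells 49 had both, where the product of the separate shares gives 24.5, a ratio of 2.00. In Psca-high cells the count was 30 of 79, against 29.8 from the product, and both genes were in most cells. In Clca1-high cells it was 45 of 853, against 37.7. Unthinned, the Psca-moderate count was 152 of 674 against 98.0. The product takes a cluster as uniform, but 36.9% of these control cells had a Psca UMI. Summed Psca was 5.25-fold higher in cells with than without Muc1, and 6.95-fold higher in cells with than without Muc4. What a mixture of cells in the cluster adds to the excess was not tested. Muc4 and Muc20, the overlapping pair, also had counts above the product. Thinned, 12 of 630 control Psca-moderate cells had both, against 8.23, a ratio of 1.46. In Clca1-high cells 10 of 853 had both, against 7.43, a ratio of 1.35. Unthinned, the counts were 62 against 38.6 in Psca-moderate cells and 57 against 35.8 in Clca1-high cells. Muc1 and Muc20, which do not overlap, had 52 against 34.0 unthinned in control Psca-moderate cells, but 5 against 6.11 thinned. What reads shared between Muc4 and Muc20 add to their excess was not tested. Muc1 and Muc16 did not show such an excess. In Clca1-high cells 11 had both, against 15.2 from the product, and unthinned 40 against 47.1. In the Psca-positive mucous cells of control the thinned count was 0 against 3.50, but the unthinned count was 11 against 10.9, so no avoidance can be read from it.

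The mucous genes used for naming the cells differed between cells with Muc1 and cells with Muc16 in 2 of the mucous clusters. In Clca1-high cells, Tff1, a secreted trefoil peptide, stood at 23498 CPM in 65 cells with a Muc16 UMI and 5752 CPM in 891 cells without, a ratio of 4.09 (3.98 to 4.19). For Muc1 the direction was the opposite, with 5551 CPM of Tff1 in 693 cells with a UMI and 12218 in 263 without, a ratio of 0.454 (0.444 to 0.465). Median depth was 4945 and 4353 UMIs in cells with and without Muc16, and 4710 and 3318 in cells with and without Muc1. Of the 7 mucous markers with 20 or more UMIs, 6 had an interval above 1 in cells with Muc16 and 0 below. In cells with Muc1, 1 was above, Clca1 itself at 1.18, and 6 were below.

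The control library gave the same order in its Psca-positive mucous cells. Tff1 was at 23065 CPM in 23 cells with Muc16 and 4317 in 101 without, and at 4912 CPM in 59 cells with Muc1 and 12615 in 65 without. Muc5b, the gel-forming mucin, was at 9125 and 1777 CPM with and without Muc16, and at 1735 and 5360 CPM with and without Muc1. Agr2, an endoplasmic reticulum protein needed for folding mucins, was at 11751 and 1850 CPM with and without Muc16. For the median cell with Muc16 the Muc5b level was 9529 CPM, and for the median cell without Muc16 it was 0, as were Agr2 and Tff1. Of 6 markers, 5 were above 1 and 1, Wfdc18, below in cells with Muc16, while 0 were above and 5 below in cells with Muc1. Muc20 went with Muc16, with 6 of 7 markers above 1 and 1 below in Clca1-high cells, and 3 of 6 above and 0 below in the control cluster. Muc4 was mixed in Clca1-high cells, with 4 above and 3 below, and had 5 of 6 below in the control cluster. In Clca1-low cells the markers did not lie lower with Muc1: 5 of 7 were above 1 and 0 below, with Tff1 and Muc5b at 1.06. These intervals treat UMIs as independent and do not cover differences between cells. No share over all genes is given for these splits, so the marker counts have no background beside them.

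**Figure D4:**
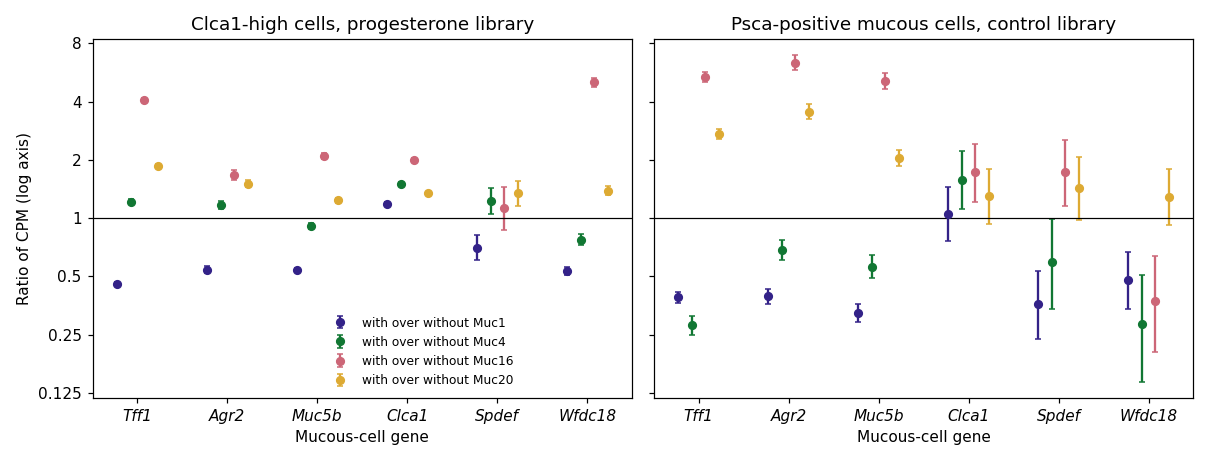
Ratio of CPM (log axis) of 6 mucous-cell genes in cells with over cells without a UMI of each mucin, in Clca1-high cells of the progesterone library (left) and Psca-positive mucous cells of the control library (right), with exact conditional 95% intervals. For Tff1, Agr2 and Muc5b the points for Muc16 lie above 1 and those for Muc1 below 1 in both libraries.

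Between libraries, Muc1 kept its overall level, while its main carrier class differed, as did that of Muc20. Over all analysed cells it had 60.5 CPM in control and 57.1 in progesterone, a ratio of 0.944 (0.879 to 1.01). Psca-positive cells held 77.8% of the Muc1 UMIs in control, and mucous cells 79.1% in progesterone. These percentages and those below move with how many cells of each class were captured. Control and progesterone had 759 and 59 Psca-positive and 130 and 1730 mucous cells. Muc4 over all cells was 67.0 CPM in control and 13.4 in progesterone, a ratio of 0.201 (0.181 to 0.222), and 92.8% of the control UMIs were in Psca-positive cells. Of its progesterone UMIs, 47.3% were in Psca-positive and 44.3% in mucous cells. Muc16 (3.53 and 4.23 CPM) had a ratio of 1.20 (0.900 to 1.61), and Muc20 (11.6 and 14.2 CPM) one of 1.23 (1.05 to 1.44). Psca-positive cells held 70.4% of the Muc20 UMIs in control, and mucous cells 81.5% in progesterone.

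In mucous cells all 4 members had lower CPM in the progesterone library. The progesterone to control ratio was 0.727 for Muc1 (0.616 to 0.863), 0.447 for Muc4 (0.309 to 0.665), 0.158 for Muc16 (0.118 to 0.215) and 0.585 for Muc20 (0.435 to 0.803). At least 2-fold lower were 2 of the 4, beside 8.01% of 10875 genes, and 0 were 2-fold higher, beside 17.4%. The members' median log2 ratio was -0.97, against 0.16 over all genes. The mixture of clusters differed, since 772 of the 1730 progesterone cells were Clca1-low and nearly free of Muc1, Muc4 and Muc16. Set against the Psca-positive mucous cells of control, Clca1-high cells alone had more Muc1 (1.38-fold, 1.16 to 1.64), less Muc16 (0.306, 0.225 to 0.421) and less Muc20 (0.562, 0.411 to 0.782). Muc4 there had a ratio of 0.779 (0.538 to 1.16), not separable at this depth. At clustering resolution 0.5 that Muc1 comparison turned, to -0.39 on the log2 scale, and the mucous ratios moved from -0.46 to -1.13 for Muc1, from -1.16 to -3.35 for Muc4 and from -2.66 to -1.66 for Muc16.

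In Psca-positive cells the ratios were above 1, but they depended on which cells were counted. Over the whole class the progesterone to control ratio was 2.60 for Muc1 (2.28 to 2.95), 1.49 for Muc4 (1.30 to 1.71) and 2.35 for Muc20 (1.68 to 3.24). Muc16 had too few UMIs for a ratio. At least 2-fold higher were 2 of the 3 members with 20 or more UMIs, beside 6.9% of 9556 genes, and 0 were lower, beside 8.85%. The median log2 ratio was 1.23 over the members and -0.04 over all genes. The class held only 59 progesterone cells, with a median of 10880 UMIs against 6340 in control, and Psca-high cells were a larger part of them. Within Psca-high cells, with 17 in progesterone, the log2 ratio was 0.44 for Muc1, -0.22 for Muc4 and 0.92 for Muc20. Within Psca-moderate cells, with 42 in progesterone and the unequal Psca shares given above, it was 1.17 for Muc1, 0.02 for Muc4 and 0.20 for Muc20. With Psca-positive cells picked one by one, by a UMI of Psca and one of Krt8 or Krt18 after thinning, the log2 ratios turned to -0.06 for Muc1 (-0.25 to 0.12), -0.63 for Muc4 (-0.85 to -0.40) and -0.22 for Muc20 (-0.73 to 0.28). Those are other cells: in progesterone 32 of 134 lay in Psca-positive clusters, 59 in mucous and 23 in squamous ones, whereas in control 142 of 246 lay in Psca-positive clusters. Muc1 alone had an interval above 0 within both clusters.

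**Figure D5:**
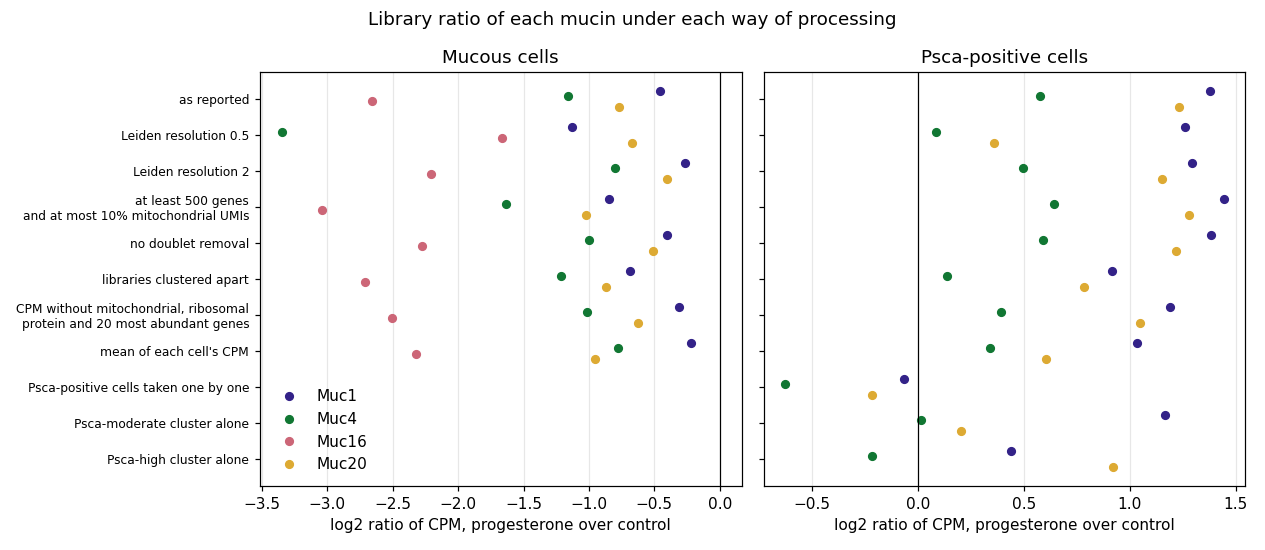
The log2 ratio of CPM, progesterone over control, of each mucin in mucous (left) and Psca-positive cells (right), as reported and under each other way of processing. All mucous ratios are below 0, and Psca-positive ratios of Muc1, Muc4 and Muc20 fall below 0 when cells are picked one by one, as does that of Muc4 in Psca-high cells alone.

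In squamous cells the ratio was 0.341 for Muc1 (0.208 to 0.550) and 0.147 for Muc4 (0.0623 to 0.311), so 2 of the 3 members with 20 or more UMIs were at least 2-fold lower, beside 6.19% of 12540 genes, and 0 higher, beside 11.3%. The suprabasal cluster with most of the control UMIs had 662 control and 32 progesterone cells, and the ratio of Muc4 over the whole library was 0.201. Within that cluster Muc1 was at 9.27 CPM in control and 14.6 in progesterone, the latter from 3 UMIs. Muc4 there was at 8.61 CPM in control and had 0 progesterone UMIs. A basal cluster of 233 and 141 cells had 7.68 and 6.39 CPM of Muc1. Each of these pairs had overlapping intervals, so the lower class levels were not resolved within these clusters. Other squamous clusters held at most 2 control Muc1 UMIs each. The parts of free RNA and of the mixture of clusters in the squamous ratio were not tested. Muc20 there had a ratio of 0.850 (0.336 to 2.25).

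In control cells, Psca-high over Psca-moderate ratios were 4.62 for Muc1 (4.05 to 5.28), 4.90 for Muc4 (4.37 to 5.49) and 3.20 for Muc20 (2.25 to 4.49). All 3 members with 20 or more UMIs were at least 2-fold higher, beside 8.68% of 9299 genes. The median gene was at -0.89 on the log2 scale in this comparison, and 46.6% of genes were at least 2-fold lower. The median log2 ratio over the 3 members was 2.21. Of 4 other transmembrane mucins with 20 or more UMIs, 3 were at least 2-fold higher and 1 lower. Muc13, an epithelial transmembrane mucin, had a ratio of 8.85 (7.41 to 10.6), and Cd164, a sialomucin of endosomes and the cell surface, one of 2.09 (1.69 to 2.58). Parm1 had 2.41 (1.33 to 4.17), and Muc15 was on the other side at 0.354 (0.0415 to 1.37).

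Genes with the most similar level across 31 groups (a cluster in 1 library, with 50 or more cells) were sought among 4038 genes, by Pearson r of log2(CPM + 10). For Muc1 these were Cfb (r = 0.93), Atp10b (0.92) and Cldn3 (0.92), complement factor B, a lipid flippase and a claudin. For Muc4 they were Muc13 (0.94), Trpv6 (0.94), an epithelial calcium channel, and Prss27 (0.93), a membrane protease. For Muc16 they were Padi2 (0.88), Fam3b (0.85) and Fer1l4 (0.84). For Muc20 they were Cldn3 (0.91), Tspan1 (0.91) and Muc1 itself (0.89). Among the members, r was 0.85 for Muc1 and Muc4, 0.78 for Muc4 and Muc20, and 0.32 for Muc4 and Muc16. Groups share their library, so these values are descriptions.

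Of 10 other transmembrane mucins listed, 8 were in the files and 4 had 20 or more UMIs in mucous cells. Cd164 was higher in the progesterone library (2.27-fold, 1.74 to 3.03), while Muc13 (0.365, 0.201 to 0.718) and Parm1 (0.459, 0.314 to 0.692) were lower, so 1 of 4 was higher and 2 lower, beside 17.4% and 8.01% of all genes. Muc13 had the opposite ratio in Psca-positive cells, at 3.55 (3.03 to 4.15), on the side of the class ratios of Muc1, Muc4 and Muc20 there. Psca-high cells, where Muc13 was higher, were a larger part of that class in progesterone. Its ratio within each cluster is not given here, and that of Muc4 was 0.859 in Psca-high and 1.01 in Psca-moderate cells. That list had 1 gene at least 2-fold higher and 1 lower of 4 in Psca-positive cells, beside 6.9% and 8.85% of all genes. In squamous cells it had 0 of 3 either way, beside 11.3% and 6.19%.

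Enzymes of mucin-type O-glycosylation, which build the sugar chains that make up much of a mucin, were measured from a list of 29 genes. In mucous cells 6 of 23 with enough UMIs were at least 2-fold higher in the progesterone library and 1 lower, with a median log2 ratio of 0.57. C1galt1, which makes the core-1 chain, had a ratio of 5.38 (2.99 to 10.8), from 11 UMIs in control, and St6galnac2, a sialyltransferase, one of 4.24 (3.41 to 5.33). The shares for all genes were 17.4% higher and 8.01% lower. Within progesterone mucous cells C1galt1 was on the side opposite to Muc1, at 54.6 CPM in Clca1-high and 162 CPM in Clca1-low cells. In Psca-positive cells 2 of 19 were higher, the sialyltransferases St3gal1 (2.09) and St3gal4 (2.25), and 1 lower, near the 6.9% and 8.85% of all genes. In squamous cells 4 of 24 were higher and 1 lower, beside 11.3% and 6.19% of all genes, with Galnt18 (2.29) and Gcnt1 (2.28) above and the fucosyltransferase Fut1 (0.201) below.

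Partners in shedding, tethering and binding were a list of 17 genes. In mucous cells 2 of 15 were at least 2-fold higher and 2 lower, near the 17.4% and 8.01% of all genes. Lgals3, a galectin that binds mucin glycans, had 2119 CPM in control and 501 in progesterone mucous cells, a ratio of 0.237 (0.222 to 0.252), and Egfr, a receptor whose kinase acts on the Muc1 tail, one of 3.56 (1.37 to 13.2), from 4 UMIs in control. Within progesterone mucous cells Lgals3 was at 751 CPM in Clca1-high and 241 in Clca1-low cells, on the side of Muc1, Muc4 and Muc16. The scaffold proteins Slc9a3r1 and Slc9a3r2 had ratios of 0.640 and 2.31. In Psca-positive cells 1 of 16 was higher and 0 lower, beside 6.9% and 8.85% of all genes. Lgals3 had a class ratio of 1.45 (1.34 to 1.57), again opposite to mucous cells, over clusters mixed unequally between the libraries. In squamous cells 0 of 16 were higher and 1 was lower, beside 11.3% and 6.19% of all genes. It was Lgals3 at 0.356, while the sheddase Adam10 had a ratio of 0.562 (0.511 to 0.618).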

How the data were processed

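The deposited matrices hold raw UMI counts for each gene in each barcode, which the authors made with Cell Ranger 3.0.2 on mm10, per the submitters' processing notes. The annotation release and strand setting are not given in the sources used here. Of 31053 gene identifiers, 30934 were in GENCODE release M21. The deposited libraries held 5368 and 10853 barcodes with 21658684 and 44811069 UMIs, control first, and no barcode under 500 UMIs, as read from the values.

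Barcodes were kept from 200 detected genes up and with mitochondrial UMIs not above 20%, and the cells scored highest by Scrublet (in scanpy 1.11.5) were left out at 0.8% per 1000 cells, 181 and 680 cells. Clustering used 2000 variable genes, 30 principal components, 15 neighbours and Leiden resolution 1, without mitochondrial genes and without the 59 genes described here. The members, lists and markers were chosen with earlier results of these data known, and the thresholds for naming clusters (such as 500 CPM of Psca) were set after clusters had been seen, so names mean "X-like". Unnamed clusters entered no class. Levels have exact Poisson intervals, shares Clopper-Pearson intervals and ratios conditional binomial intervals, at 95%. UMIs remove PCR copies, but intervals cover counting error only. A count of 0 was set to a floor of 3 counts. Lists were counted over genes with at least 20 UMIs and a 2-fold ratio. The ratio step was tested on simulated data. Genes named besides the members were the 3 most similar per member and, per list and class, up to 2 highest and 2 lowest by interval bound. Muc13 and Cd164 in Psca-high cells, Parm1 and Muc15 there, C1galt1 and Lgals3 by Clca1, and the mucous markers compared by mucin, were chosen after values were seen. Alternatives were other resolutions, filters, doublet handling, scalings, thinning depths and Psca definitions.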

Additional observations from a re-analysis of the deposited data

Results flagged for a closer look

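The progesterone to control ratio of 3 mucins lay on opposite sides of 1 in different cell classes, with intervals for counting error that did not reach 1. Muc1 had a ratio of 0.727 in mucous cells and 0.341 in squamous cells, against 2.60 in Psca-positive cells. Muc4 had 0.447 in mucous cells and 0.147 in squamous cells, against 1.49 in Psca-positive cells. Muc20 had 0.585 in mucous cells, against 2.35 in Psca-positive cells. After thinning, however, Muc20 was read in 7.14% of 56 progesterone and 7.19% of 709 control Psca-positive cells. With 1 library per group the difference was not tested. The mucous side compares different clusters in each library: Clca1-high cells alone had 1.38 times the Muc1 of the control Psca-positive mucous cells (1.16 to 1.64), the same side as Psca-positive cells. The squamous side also mixes clusters unequally. Its suprabasal cluster of 662 control and 32 progesterone cells had 9.27 and 14.6 CPM of Muc1, with overlapping intervals. The Muc4 ratio was 0.859 in Psca-high and 1.01 in Psca-moderate cells, with intervals that include 1. With cells picked one by one each Psca-positive ratio was below 1, with intervals that include 1 for Muc1 and Muc20. Of those cells 32 of 134 in progesterone and 142 of 246 in control lay in Psca-positive clusters.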

How the results depend on the processing

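Values here are log2 ratios. No paired analysis was possible because each group is 1 library. Of 774 values recomputed under an alternative, 519 stayed within their spread, 247 moved and 8 reversed. At Leiden resolution 0.5 the progesterone over control ratio in mucous cells was -1.13 for Muc1, -3.35 for Muc4 and -1.66 for Muc16, and in Psca-positive cells 0.086 for Muc4 and 0.36 for Muc20. There Psca-positive over mucous control cells reversed for Muc4 (-1.92), Clca1-high over Clca1-low was 0.38 for Muc20, and Clca1-high over control Psca-positive mucous cells reversed for Muc1 (-0.39). At resolution 2 mucous Muc16 was -2.21 and the Clca1 ratio of Muc1 3.51. With a stricter filter (500 genes, 10% mitochondrial UMIs) mucous Muc1 was -0.85. With libraries clustered apart, Psca-positive cells gave 0.92 for Muc1 and 0.14 for Muc4. By the mean of each cell's CPM they gave 1.03 for Muc1, 0.34 for Muc4 and 0.60 for Muc20, and the Clca1 ratio was 3.68 for Muc1 and 2.96 for Muc16. Psca-positive cells picked one by one (246 control and 134 progesterone cells, of which 53 and 79 had 1 Psca UMI, and 142 and 32 lay in Psca-positive, 70 and 59 in mucous, 11 and 23 in squamous clusters) reversed all 3: -0.064 for Muc1, -0.63 for Muc4 and -0.22 for Muc20, and also Muc1 over mucous control cells (0.59). The last alternatives were chosen after seeing the data. The Psca-moderate cluster alone gave 1.17 for Muc1, 0.015 for Muc4 and 0.20 for Muc20. The Psca-high cluster alone gave 0.44 for Muc1, reversed Muc4 (-0.22), and reversed Muc1 over mucous control cells (1.17). The cause of these changes was not tested. All 7 alternatives kept the sign of each mucin's ratio in mucous cells. Muc16 had too few UMIs for a library ratio in Psca-positive cells, where its upper bounds were 1.16 CPM in control and 5.91 CPM in progesterone. Squamous levels rest on few UMIs and could not be told apart from the shallower classes that set the background.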

Other observations

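A cluster left unnamed held 105 control and 485 progesterone cells, with 3565 CPM of the basal keratin Krt5, and Spdef and Agr2, which mark secretory cells, among its leading genes. Muc1 was at 157 CPM in its control cells (109 to 219) and 13.4 CPM in its progesterone cells (9.30 to 18.6), a ratio of 0.0850 (0.0516 to 0.140). Muc4 had a ratio of 0.283 (0.0729 to 1.60) and Muc20 one of 0.361 (0.118 to 1.48), with intervals that include 1.

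A cluster of 39 cells, all from the progesterone library and led by Prap1, Serpina1e and C3, had 53.1 CPM of Muc1 (32.0 to 82.9), 22.4 of Muc4 (9.65 to 44.1), 16.8 of Muc20 (6.15 to 36.5) and 0 UMIs of Muc16. The small cluster just outside the Psca-positive class had 214 CPM of Muc1 (103 to 393) and 257 of Muc4 (133 to 448) in its 22 progesterone cells.

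In Psca-moderate control cells, Psca stood at 1719 CPM in 274 cells with a Muc4 UMI and 247 CPM in 400 cells without, at median depths of 6554.5 and 6139 UMIs. In Psca-high cells the same comparison gave 19920 CPM with and 25768 without Muc4, at median depths of 7778.5 and 2743.

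Of the 44 Clca1-low cells with a Muc1 UMI, the summed Clca1 level was 2725 CPM, against 333 CPM in the 728 without, and Gp2, a receptor for bacterial fimbriae on mucosal cells, was at 447 against 67.5 CPM.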
